A study of Homo sapiens with 6 samples.

Results

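DNA repair genes were followed in RNA-seq counts of WM164 cells, a human melanoma cell line that carries BRAFV600E. The list holds 51 genes chosen by symbol for their known role in nucleotide excision repair, homologous recombination, the Fanconi anaemia pathway, mismatch repair, end joining, base excision and single-strand break repair, or damage signalling. The list was drawn up with earlier results of these data known. All 51 were among the 60504 genes of the table and all 51 were tested, out of 26162 genes tested. The study asked what raised HDAC8, a class I histone deacetylase, does to melanoma cells. Cells of the EV group (n = 3) carried an empty expression vector and cells of the HDAC8 group (n = 3) an HDAC8 expression vector. Both groups shared the BRAFV600E genotype, were transfected with Lipofectamine and were kept in hygromycin, and no drug, irradiation or other damaging agent is named for these libraries. As a model, the comparison is limited to 1 cell line and to steady-state RNA in undamaged culture. Whether the transfected cells were a pool or 1 clone is not given in the sources used here.

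Cells remove bulky lesions such as ultraviolet photoproducts by nucleotide excision repair, in which a damage sensor opens the helix, nucleases cut out the damaged stretch and a polymerase fills the gap. Broken chromosomes are rejoined directly by end joining, or copied from the sister chromatid by homologous recombination, which works in S and G2 phase and shares many proteins with the Fanconi pathway of crosslink repair. ATM and ATR are the kinases that sense breaks and stalled replication forks and pass the signal to CHEK2 and CHEK1. In melanocytes and melanoma, nucleotide excision repair is known as the defence against sunlight damage.

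Total counts were 34741083 to 42041462 per library and overlapped between the groups. The HDAC8 transcript itself stood at 383.8, 404.4 and 478.8 normalized counts in EV and at 484.8, 445.5 and 473.7 in HDAC8 libraries, a log2 fold change of 0.15 ± 0.28 (SE, adjusted p = 0.856), so this gene does not check the labels and directions below are those of the libraries labelled HDAC8. Mitochondrially encoded genes took 9.66% to 12.8% of the counts in EV and 4.46% to 7.94% in HDAC8 libraries. The 51 repair genes took 0.439% to 0.485% of the counts in EV and 0.57% to 0.593% in HDAC8 libraries. This share weighs genes by their counts, so PRKDC, the highest in counts, enters it most. PRKDC had on average 51086.3 normalized counts in EV and 72771.1 in HDAC8 libraries. The median log2 fold change over the list was only 0.10. Leaving the mitochondrial genes out kept all 4 calls made below, but could hardly do otherwise. It took the genes tested from 26162 to 26145, and the size factors rest on a median over genes. Scaling by total counts, in which the mitochondrial share does enter, gave 4 higher and 1 lower repair genes and lost the ATM call. Over all genes it gave 1318 higher and 1019 lower. All 8 melanocytic markers had a mean of at least 10 normalized counts, though TYRP1 was at 0 in 2 HDAC8 libraries, with a sum of 244960.8 to 328760.5 normalized counts in EV and 137043.5 to 182217.7 in HDAC8 libraries, mostly PMEL. Within it MLANA was at 8323.2 to 9052.3 in EV and 236.9 to 372.4 in HDAC8 libraries. TYR was at 16362.4 to 17720.5 and 4865.4 to 6214.7, and DCT at 17417.3 to 19883.8 and 7294.7 to 10035.8. The groups were distinct in MLANA, TYR and DCT. MITF overlapped, at 16257 to 17935.2 in EV and 11313.6 to 17919.5 in HDAC8 libraries. SOX10 was only narrowly apart, at 13633.2 to 18067.9 and 9685.5 to 13394.1. Of other cell types, DCN, KRT1 and CDH5 were listed at 0 in all libraries, while the fibroblast sum, mostly LUM, was 2365.7 to 2869 in EV and 1150.1 to 2187.6 in HDAC8 libraries. The leukocyte sum was 0 to 14.7 in EV and 50.1 to 111.6 in HDAC8 libraries, mostly CD3E, with PTPRC at 0 to 2.6. Keratinocyte (146.6 to 280 and 165.5 to 176.2) and endothelial sums (97.5 to 202.9 and 114.3 to 218) overlapped. Their part in the values below was not tested.

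The repair list as a whole did not move in 1 direction. A call required a DESeq2 adjusted p below 0.05 together with a log2 fold change of 0.58 or more in either direction. By this rule 4 of the 51 repair genes were called, or 7.84%, beside 11% of all genes with an adjusted p and 15.5% of protein-coding genes in the same range of counts. DDB1 and RAD50 were higher, where 5.57% of all genes were called higher, and LIG4 and ATM were lower, where 5.44% of all genes were. The median log2 fold change over the list was 0.10, against 0 over all genes tested, and single genes ran from -0.90 to 0.66. The sign was positive in 30 genes and negative in 21. The level of all 51 genes in bulk RNA cannot tell a change per cell from a change in which cells made up the culture.

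Dropping the minimum change loosens the rule, so the count below includes the 4 called genes and could not be smaller. With no minimum change, 9 repair genes had an adjusted p under 0.05, or 17.6%, beside 13% of all genes and 19.1% of protein-coding genes of like counts. Of these 9, 7 were higher, or 13.7% of the list, beside 6.63% of all genes and 10.2% of those of like counts. The libraries of the 2 groups did not overlap in 20 repair genes, which is 39.2% beside 24% of all genes and 37.2% of protein-coding genes of like counts. Of these, 15 were higher, or 29.4% of the list, beside 11.3% of all genes and 18.2% of those of like counts. The other 5 were lower, or 9.8%, beside 12.7% and 19.1%. The total was close to that of genes of like counts, while the split leaned to higher genes. The 95% interval of the log2 fold change lay within 0.58 in 13 genes and reached past it in the other 38, so most genes without a call could still have changed by that much.

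**Figure D1:**
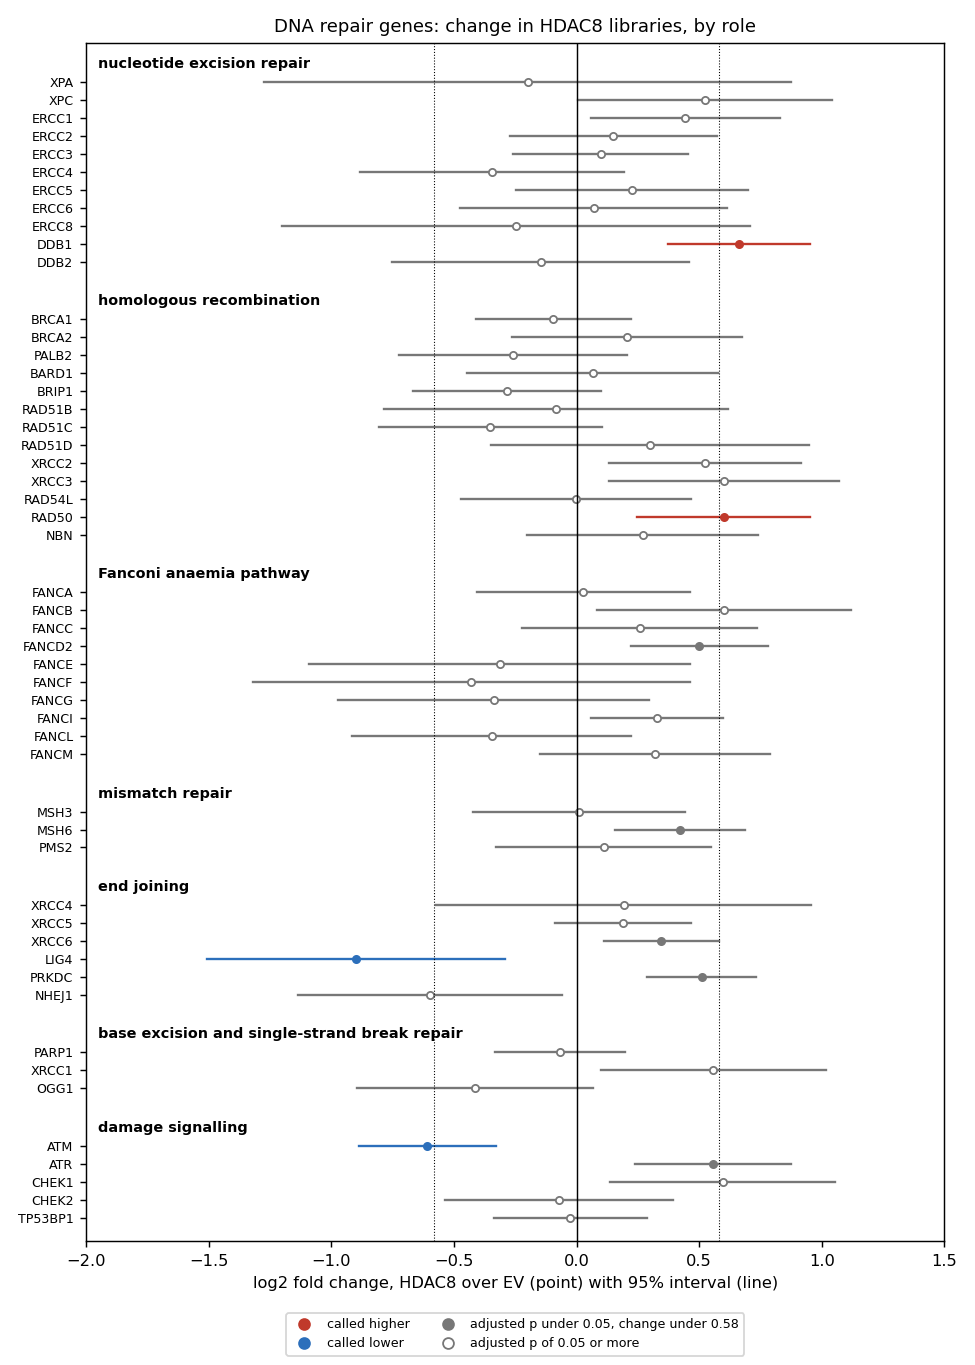
Log2 fold change of HDAC8 over EV libraries for the 51 repair genes, grouped by role, with points for the DESeq2 estimate and lines for the 95% interval (n = 3 libraries a group; dotted lines mark 0.58 in either direction). DDB1 and RAD50 are called higher, LIG4 and ATM lower, and most other intervals cross 0.

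Levels per length set the scale of the machinery. In TPM, the read count per length scaled to a common total per library, 3 of the 6 end joining genes stood highest in the EV libraries, with XRCC6 at 401 ± 15.3 (SD, n = 3), XRCC5 at 259 ± 40.3 and PRKDC at 256 ± 11.5 TPM. The levels of XRCC5 and PRKDC did not differ beyond their spread. PARP1 followed at 94.3 ± 6.5 and DDB1 at 87.9 ± 3.94 TPM, again closer to each other than their spread, then FANCI at 72.3 ± 9.63 and ATM at 63.8 ± 12.7 TPM. The lowest were ERCC8 at 1.23 and RAD51D at 3.23 TPM. The length used was that of the longest annotated transcript, so the order of genes depends on it. It was 9414 bases for ERCC8 and 10026 for RAD51D. XPA, at 1584 bases, ranked above RAD51D with fewer normalized counts, 99.9 against 528.7 on average. The other end joining genes were far lower, with XRCC4 at 12.8, LIG4 at 6.68 and NHEJ1 at 5.23 TPM.

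Nucleotide excision repair had 1 call among its 11 genes, or 9.09%, beside 11% of all genes. DDB1, which with DDB2 binds ultraviolet lesions and also serves as the adaptor of CUL4 ubiquitin ligases, had 5922.5, 6944.7 and 6344.2 normalized counts in EV and 11719.7, 9055.5 and 9649.2 in HDAC8 libraries. Every HDAC8 library was above every EV library. The log2 fold change was 0.66 ± 0.15 (SE, adjusted p = 0.000166), a 1.58-fold rise (95% interval 1.3 to 1.94). HDAC8 replicate 1 was the highest, and without it the log2 fold change was 0.55, under the minimum, at an adjusted p of 3.97e-05. DDB1 lies at chr11:61299451-61342596 on the minus strand (GRCh38).

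Its partner DDB2, a p53 target and the subunit that contacts the lesion, did not pass the test, with 357.6, 596.8 and 674.8 normalized counts in EV and 493.4, 508 and 471.5 in HDAC8 libraries (log2 fold change -0.15, adjusted p = 0.875). The other damage sensor, XPC, stood at 607.1, 878.8 and 874.8 in EV and at 1467.3, 868.5 and 1060.6 in HDAC8 libraries, which overlapped (log2 fold change 0.53, adjusted p = 0.203). ERCC1, which forms the incision nuclease with ERCC4, was the only other gene of this group whose libraries did not overlap. It had a log2 fold change of 0.44 (adjusted p = 0.127), and ERCC4 one of -0.35 (adjusted p = 0.516). The helicases ERCC2 and ERCC3 of TFIIH were at 0.15 and 0.10, the nuclease ERCC5 at 0.23, the transcription-coupled factors ERCC6 and ERCC8 at 0.07 and -0.25, and XPA at -0.20 on the log2 scale, and none passed. The median of the 11 genes was 0.10.

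Homologous recombination also had 1 call, among 13 genes, or 7.69%, beside 11% of all genes. RAD50, the coiled-coil ATPase of the complex with MRE11 and NBN that binds broken ends, had 2110.8, 2249.8 and 2732.7 normalized counts in EV and 2989.4, 4045.4 and 3719.9 in HDAC8 libraries. The groups did not overlap, but HDAC8 replicate 1 lay close to EV replicate 3. The log2 fold change was 0.60 ± 0.18 (SE, adjusted p = 0.01), a 1.52-fold rise (95% interval 1.19 to 1.94). The call was lost without EV replicate 1 (0.52, adjusted p = 0.119), EV replicate 2 (0.56, 0.0602), HDAC8 replicate 2 (0.51, 0.0691) or HDAC8 replicate 3 (0.57, 0.0843). NBN overlapped between the groups, at a log2 fold change of 0.27 (adjusted p = 0.589). RAD50 lies at chr5:132556019-132646349 on the plus strand.

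RAD51B, RAD51C, RAD51D, XRCC2 and XRCC3, which act together in the strand exchange step, differed among themselves without a call. XRCC3 had 681.6, 975 and 753.6 normalized counts in EV and 1455.3, 1039.5 and 1158.6 in HDAC8 libraries (log2 fold change 0.60, adjusted p = 0.0787). XRCC2 had 1953.5, 1767 and 1914.1 in EV and 1982.1, 3057.1 and 3067.6 in HDAC8 libraries (0.53, adjusted p = 0.0621). Neither gene overlapped between the groups, although HDAC8 replicate 1 lay close to EV replicate 1 in XRCC2. RAD51C, which pairs with XRCC3, did not overlap in the other direction, at -0.35 (adjusted p = 0.392), and RAD51B and RAD51D were at -0.08 and 0.30. The tumour suppressors BRCA1, BRCA2 and PALB2, which act together at the break, had log2 fold changes of -0.10, 0.21 and -0.26. BARD1, the partner of BRCA1, was at 0.07, the helicase BRIP1 at -0.28 and the motor protein RAD54L at 0.00, and all of these overlapped between the groups.

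None of the 10 Fanconi genes was called, where 11% of all genes were. FANCD2, which with FANCI forms the clamp that is ubiquitinated at crosslinks, had 4558.3, 4020.6 and 3991.7 normalized counts in EV and 5465.7, 6392.7 and 5932.6 in HDAC8 libraries. All HDAC8 libraries were above all EV libraries, at a log2 fold change of 0.50 ± 0.14 (SE, adjusted p = 0.00629) that is under the minimum. FANCI did not pass, at a log2 fold change of 0.33 (adjusted p = 0.097), and its libraries did not overlap. FANCB, a subunit of the core complex encoded on the X chromosome, showed the largest difference of the group, from 614.5, 552.9 and 685.6 in EV to 804.6, 1226.9 and 776.4 in HDAC8 libraries (0.60 ± 0.26, adjusted p = 0.124). HDAC8 replicate 2 was well above the other HDAC8 libraries of this gene. The translocase FANCM was at 0.32 and did not overlap. The other core complex genes were spread on both sides of 0, with FANCA at 0.03, FANCC at 0.26, FANCE at -0.31, FANCF at -0.43 and FANCG at -0.34, and the ubiquitin ligase FANCL was at -0.35. Reads of FANCD2 can be shared with its pseudogenes, which makes its count less certain.

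Among the 3 mismatch repair genes, none was called, where 11% of all genes were. MSH6, the MutS subunit that recognises base mismatches, had 5056.4, 5047.9 and 5818.2 normalized counts in EV and 6880, 7239.7 and 7194.7 in HDAC8 libraries, with no overlap (log2 fold change 0.42 ± 0.14, adjusted p = 0.0189). MSH3, the alternative subunit for larger loops, was at 0.01, and PMS2, the MutL endonuclease, whose reads can be shared with pseudogenes, at 0.11. The difference was thus past the adjusted p for 1 of the 3 genes and under the minimum change.

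Of the 6 end joining genes, 1 was called, or 16.7%, beside 11% of all genes and 15.5% of protein-coding genes of like counts. LIG4, the ligase that seals the break, had 749.8, 483.8 and 751.7 normalized counts in EV and 272.8, 407.6 and 384.4 in HDAC8 libraries. All HDAC8 libraries were below all EV libraries, and EV replicate 2 was the nearest to them. LIG4 fell by 0.90 on the log2 scale (SE 0.31, adjusted p = 0.033; 95% interval of the fold 0.352 to 0.817). The call was lost without EV replicate 1 (adjusted p = 0.213), EV replicate 3 (0.208), HDAC8 replicate 1 (0.0819) or HDAC8 replicate 3 (0.0785), with limma-voom (0.0501) and with a replicate block (0.0857). The direction held in each of these fits. LIG4 lies at chr13:108207439-108218368 on the minus strand.

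XRCC4, the scaffold that stabilises LIG4, did not follow it, with 299.9, 229.7 and 432.5 normalized counts in EV and 303.6, 523.3 and 272.2 in HDAC8 libraries (log2 fold change 0.19, adjusted p = 0.868). NHEJ1, which forms filaments with XRCC4 around the ends, had 565.2, 560.4 and 739.8 in EV and 411.3, 389.2 and 433.4 in HDAC8 libraries. These did not overlap, but the log2 fold change of -0.60 did not pass (adjusted p = 0.148).

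PRKDC and XRCC6, transcripts of proteins that first bind the ends, were higher with an adjusted p under 0.05 but below the minimum change, and XRCC5 did not pass. PRKDC, the catalytic subunit of DNA-dependent protein kinase and the most abundant repair transcript in counts, had 48331.1, 51076.8 and 53851 normalized counts in EV and 71636.1, 73249.2 and 73428.1 in HDAC8 libraries. The groups were far apart relative to their spread (51086.3 ± 2759.9 and 72771.1 ± 987, SD). The log2 fold change was 0.51 ± 0.11 (SE, adjusted p = 0.000155), under the minimum for a call. XRCC6, which encodes Ku70, had 15260.3, 16381.2 and 16613.2 in EV and 21212, 20711.4 and 19342 in HDAC8 libraries, again without overlap (0.34 ± 0.12, adjusted p = 0.0343). XRCC5, which encodes Ku80, overlapped between the groups (0.19, adjusted p = 0.479). PRKDC kept an adjusted p under 0.05 under each alternative other than the test against the minimum change, with values from 0.47 to 0.56 on the log2 scale.

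Base excision and single-strand break repair had no call among 3 genes, where 11% of all genes were called. XRCC1, the scaffold of single-strand break repair, had 619.7, 911.5 and 741.8 normalized counts in EV and 1213.4, 1110.2 and 1021.4 in HDAC8 libraries, which did not overlap (log2 fold change 0.56 ± 0.23, adjusted p = 0.0991). PARP1, the sensor that recruits XRCC1, had 8199, 9459.8 and 8331.2 in EV and 8858.6, 7634 and 8297.8 in HDAC8 libraries. Its libraries overlapped, and the 95% interval of its log2 fold change, -0.33 to 0.20, lay within the minimum on both sides. OGG1, the glycosylase for oxidised guanine, had a log2 fold change of -0.41 (adjusted p = 0.315) with no overlap.

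The signalling kinases diverged. ATM had 13456.7, 10375.1 and 13067.7 normalized counts in EV and 7688.9, 8118.4 and 8383.8 in HDAC8 libraries, so all HDAC8 libraries were below all EV libraries. It fell by 0.61 on the log2 scale (SE 0.14, adjusted p = 0.000403; 95% interval of the fold 0.54 to 0.796). ATR had 1973.5, 1816.5 and 2230.3 in EV and 2854.3, 2974.1 and 3027.3 in HDAC8 libraries, so here all HDAC8 libraries were above. Its log2 fold change was 0.56 ± 0.16 (SE, adjusted p = 0.00774), just under the minimum. The ATM call sat near the minimum too: it was lost on size alone with total-count scaling (-0.57), with normalization within bins of GC content (-0.52), and without EV replicate 1 (-0.54), EV replicate 3 (-0.57) or HDAC8 replicate 1 (-0.578), while the adjusted p was at most 0.025 in these fits. ATM lies at chr11:108223044-108369102 on the plus strand.

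CHEK1, the kinase activated by ATR, had 1132.5, 834 and 1096.4 normalized counts in EV and 1155.2, 1706.2 and 1767.4 in HDAC8 libraries (log2 fold change 0.60, adjusted p = 0.0731). HDAC8 replicate 1 lay just above the highest EV library. CHEK2, the kinase activated by ATM, overlapped between the groups (-0.07, adjusted p = 0.931), as did TP53BP1, the chromatin reader that favours end joining (-0.03, adjusted p = 0.967). Reads of CHEK2 can be shared with its pseudogenes.

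**Figure D2:**
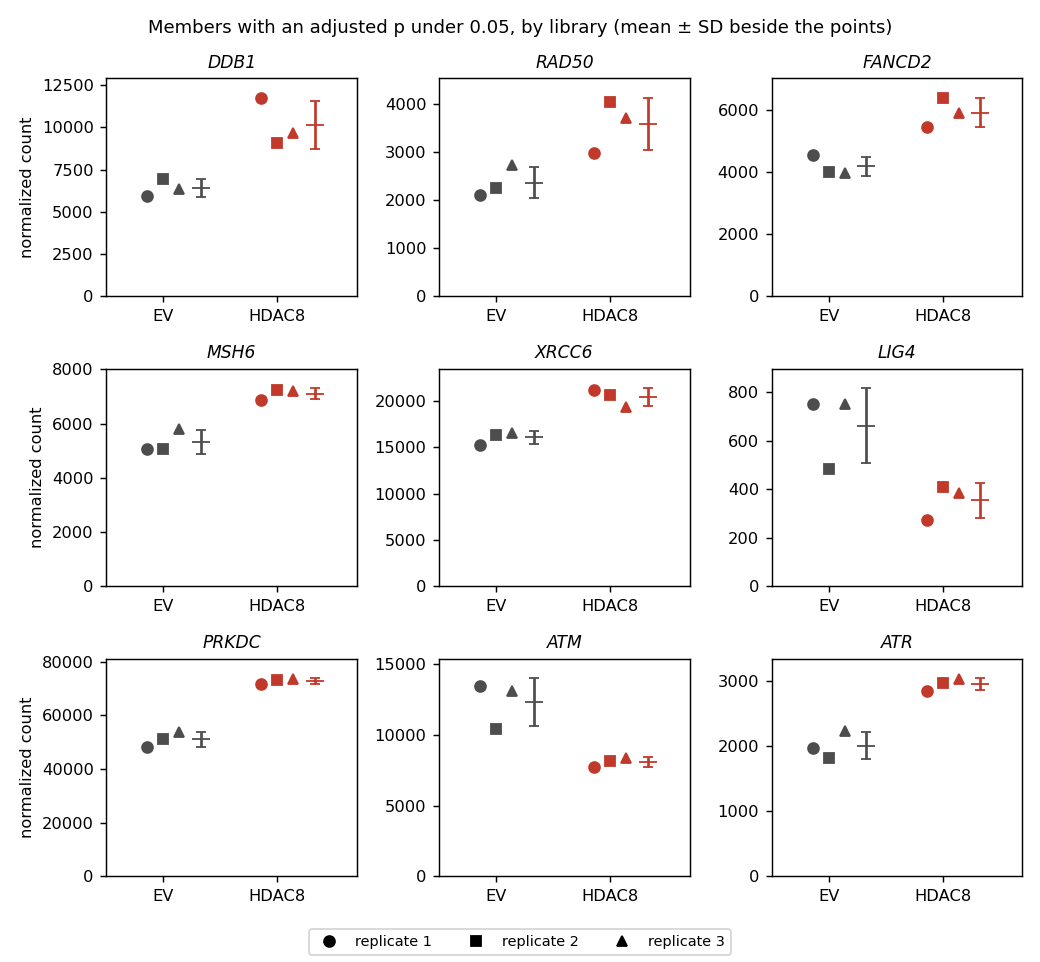
Normalized counts (y axes, from 0) of the 9 repair genes with an adjusted p under 0.05 in each EV (grey) and HDAC8 (red) library, with symbols for replicate numbers and mean ± SD beside the points. In all 9 genes the 3 HDAC8 libraries lie on 1 side of the 3 EV libraries, below them for LIG4 and ATM and above them for the other 7.

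Ratios between partner genes within a library do not depend on a scaling factor that all genes of the library share. They can depend on normalization within bins of GC content where partners differ in GC. XRCC3 and RAD51C (63.8% and 44.3% GC) and ERCC4 and ERCC1 (40.4% and 56.2%) are such pairs. The ratios are given here as a description, since the pairs were chosen with the values known. The ATM to ATR ratio in TPM was 4.24, 3.55 and 3.64 in EV and 1.67, 1.7 and 1.72 in HDAC8 libraries. The HDAC8 libraries were close together and all below the EV libraries, by 1.16 on the log2 scale on average. The LIG4 to XRCC4 ratio was 0.627, 0.528 and 0.436 in EV and 0.226, 0.195 and 0.354 in HDAC8 libraries, a log2 difference of -1.07. The XRCC3 to RAD51C ratio went from 0.787, 1.18 and 0.689 to 1.93, 1.51 and 1.56, and the DDB1 to DDB2 ratio from 10.4, 7.33 and 5.93 to 15, 11.2 and 12.9. The ERCC4 to ERCC1 ratio, both subunits of 1 nuclease, went from 0.317, 0.222 and 0.356 to 0.114, 0.198 and 0.185. None of these 5 ratios overlapped between the groups. The PRKDC to XRCC6 ratio did not overlap either but differed by only 0.17 on the log2 scale. The ratios of XRCC6 to XRCC5, FANCD2 to FANCI, BRCA1 to BARD1, RAD50 to NBN and XRCC2 to RAD51D overlapped.

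**Figure D3:**
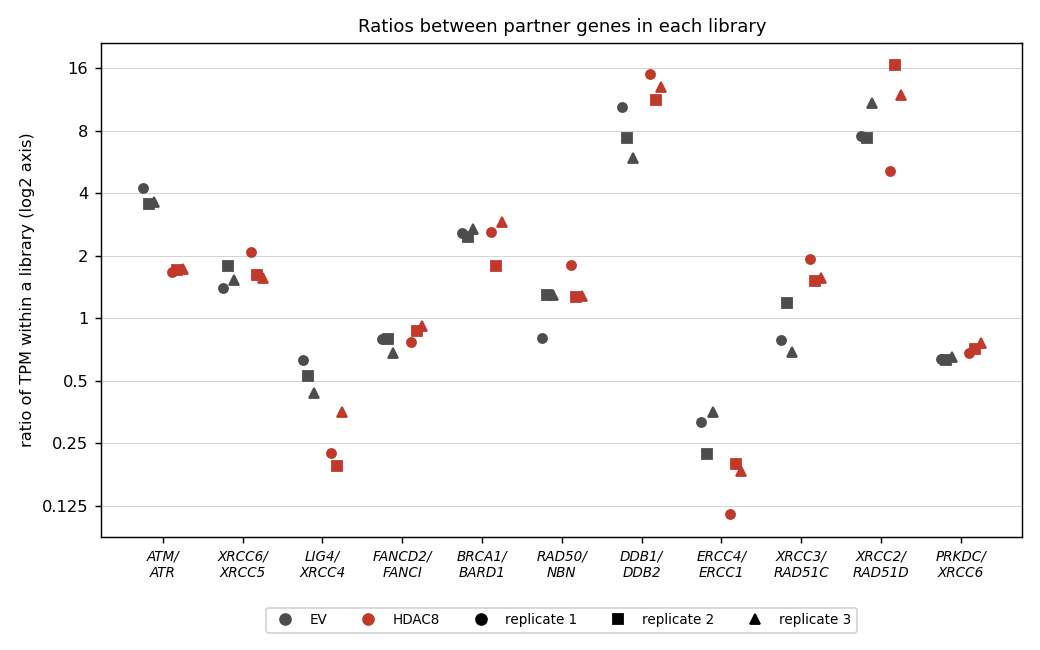
Ratio of TPM between 2 partner genes within each library (log2 y axis), for 11 pairs, with EV in grey and HDAC8 in red and symbols for replicate numbers. The ATM to ATR ratio is 3.55 to 4.24 in EV and 1.67 to 1.72 in HDAC8 libraries, and the ratio of XRCC6 to XRCC5 overlaps.

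The promoters of the 4 called genes are shown because these genes changed in opposite directions. Each runs from 250 bases before to 50 bases after the transcript start, 5′ to 3′ on the gene's own strand, and comes from RefSeq (GRCh38.p14), at chr11:61333056-61333355 for DDB1, chr5:132556727-132557026 for RAD50, chr13:108218300-108218599 for LIG4 and chr11:108222817-108223116 for ATM. Capitals mark letters that were searched for, which are an E-box core in RAD50 and, in ATM, an NF-Y-type core read from the other strand and then a CHR-type core.
DDB1: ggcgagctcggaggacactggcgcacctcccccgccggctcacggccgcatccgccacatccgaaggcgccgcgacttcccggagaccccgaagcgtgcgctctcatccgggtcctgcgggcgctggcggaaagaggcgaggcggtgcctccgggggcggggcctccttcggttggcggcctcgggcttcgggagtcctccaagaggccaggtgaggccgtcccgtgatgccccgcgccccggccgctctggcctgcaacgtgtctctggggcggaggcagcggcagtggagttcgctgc
RAD50: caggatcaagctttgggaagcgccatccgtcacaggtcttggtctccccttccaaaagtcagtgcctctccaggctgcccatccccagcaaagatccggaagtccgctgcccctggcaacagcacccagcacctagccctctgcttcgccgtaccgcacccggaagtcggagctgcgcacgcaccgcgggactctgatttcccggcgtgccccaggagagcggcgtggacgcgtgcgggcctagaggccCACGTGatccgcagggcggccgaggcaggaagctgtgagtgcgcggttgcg
LIG4: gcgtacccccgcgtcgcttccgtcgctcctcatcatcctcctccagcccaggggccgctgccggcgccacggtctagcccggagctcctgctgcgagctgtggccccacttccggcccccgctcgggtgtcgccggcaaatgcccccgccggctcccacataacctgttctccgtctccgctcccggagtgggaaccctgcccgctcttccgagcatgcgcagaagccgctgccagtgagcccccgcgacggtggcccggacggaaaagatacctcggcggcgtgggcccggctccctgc
ATM: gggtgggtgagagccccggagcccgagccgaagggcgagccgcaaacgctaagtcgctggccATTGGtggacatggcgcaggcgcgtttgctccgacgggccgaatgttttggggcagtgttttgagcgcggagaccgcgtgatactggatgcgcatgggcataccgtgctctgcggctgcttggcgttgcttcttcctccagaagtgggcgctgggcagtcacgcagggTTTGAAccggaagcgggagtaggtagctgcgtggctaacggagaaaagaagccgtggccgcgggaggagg

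All 4 windows are rich in G and C, at 74.3% in DDB1, 66.7% in RAD50, 72.3% in LIG4 and 64.3% in ATM. The letters searched were TTTNGCGC (an E2F-type core), CCAAT (NF-Y-type), TGANTCA (AP-1-type), CACGTG (an E-box) and TTTGAA (CHR-type), on both strands. CACGTG lay across the start of RAD50, and ATM held CCAAT at position -188 and TTTGAA at position -20 from the start. None of the letters was in the windows of DDB1 and LIG4. A window was at hand for 47 of the 51 repair genes. Of these 47, 8.51% held TTTNGCGC, beside 1.83% of all 27305 promoters of the same length, and the holders were CHEK2, FANCC, MSH3 and XRCC6. CCAAT was in 42.6% against 35.7%, CACGTG in 8.51% against 7.43%, and TTTGAA in 8.51% against 15.4%. TGANTCA was in 0 of 47 windows and in 7.76% of all promoters. These are matches of letters, not binding sites.

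Several repair genes start back to back with another gene, and the partners were read from the same fit. PRKDC starts 7 bases from MCM4, a helicase subunit of the replication licensing complex, on chromosome 8, and MCM4 rose, from 7678.6 ± 629.5 to 15722.7 ± 2528 normalized counts (SD, log2 fold change 1.03, adjusted p = 6.87e-10). ATM starts 406 bases from NPAT, an activator of histone genes, which had a log2 fold change of -0.42 and did not pass (adjusted p = 0.224). LIG4 starts 24 bases from ABHD13, at -0.30 (adjusted p = 0.775), and XRCC6 starts 120 bases from DESI1, at -0.25 (adjusted p = 0.35). Over the 13 such pairs within 1000 bases whose partner had a mean of at least 50 normalized counts, the sign was shared in 8 and opposite in 5, and MCM4 was the 1 partner called. Wider neighbourhoods gave no uniform picture: over the tested genes among the 10 protein-coding genes on each side, the median log2 fold change was 0.14 around DDB1, 0.38 around RAD50, 0.01 around LIG4 and -0.23 around ATM. Strand use in counting is not given in the sources used here, so overlapping genes cannot be told apart.

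Repair genes outside the list were read from lists of related genes. Of 16 other nucleotide excision repair genes, 3 were higher and none lower: RPA1, the large subunit of the single-strand binding complex (log2 fold change 0.86, adjusted p = 4.04e-06), XAB2, which binds XPA (0.76, adjusted p = 0.0034), and LIG1, which seals the repair patch (0.62, adjusted p = 0.0135). Of 29 other recombination and Fanconi genes, TOP3A, the topoisomerase that dissolves joint molecules, was higher (0.88, adjusted p = 5.23e-06) and none was lower. Of 26 other mismatch, base excision and end joining genes, the glycosylase NEIL2 was higher (1.00, adjusted p = 0.0368). Of 25 other signalling and tolerance genes, MDC1, the scaffold at phosphorylated H2AX, was higher (0.66, adjusted p = 7.18e-05), and MGMT was lower. MGMT, which removes alkyl groups from guanine, had 239.1, 305.4 and 249.2 normalized counts in EV and 126.6, 75.8 and 69.7 in HDAC8 libraries (-1.54, adjusted p = 0.00894). In the order given, 18.8%, 3.45%, 3.85% and 8% of these 4 lists were called. The share was 11% over all genes and 15.5% over protein-coding genes in the repair genes' range of counts, so only the first list was above both. The medians of these 4 lists lay between -0.03 and 0.09, near that of all genes.

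Many recombination, Fanconi and checkpoint genes are transcribed mainly in S phase, so 30 S phase genes were set beside them. Of these, 6 were higher and none lower, or 20%. The share called was 11% over all genes and 15.5% over protein-coding genes in the repair genes' range of counts. The list was chosen with earlier results of these data known. Its median log2 fold change was 0.44. The called genes were MCM2 (0.74), MCM4 (1.03), MCM5 (0.83), MCM7 (1.02), MCM10 (0.71) and UHRF1 (0.87). Against the EV mean, the list's median stood on the log2 scale at -0.03, 0.01 and -0.01 in EV and at 0.27, 0.48 and 0.45 in HDAC8 libraries. For the 13 homologous recombination genes these medians were 0.01, -0.09 and 0.11 in EV and -0.24, -0.01 and 0.04 in HDAC8 libraries. For the 10 Fanconi genes they were 0.09, -0.08 and -0.07 in EV and 0.37, 0.09 and -0.02 in HDAC8 libraries, and for the 5 signalling genes 0.13, -0.25 and 0.10 in EV and 0.18, -0.15 and 0.12 in HDAC8 libraries. The groups overlapped in all 3 repair roles and not in the S phase list. The part of the S phase list in the rise of single repair genes was not tested.

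Since ATM and ATR act in part through p53, 22 p53 target genes were set beside them too. Of these, 6 were lower and 1 was higher, or 33.3% of those with an adjusted p. The share called was 11% over all genes and 15.5% over protein-coding genes in the repair genes' range of counts. This list, too, was chosen with earlier results of these data known. Its median log2 fold change was -0.16. The lower genes were the stress cytokine GDF15 (-1.75), TP53I3 (-1.73), the death receptor FAS (-1.67), SESN2 (-1.24), BTG2 (-1.18) and TIGAR (-0.82), and the nuclease AEN was higher (0.98). CDKN1A, the best-known p53 target, did not pass, at 0.08 (adjusted p = 0.916), nor did MDM2, at -0.48 (adjusted p = 0.0575). Several of these genes also respond to other stress pathways.

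HDAC8 replicate 1 stood apart from the other HDAC8 libraries in many of these genes, and over the whole table by chi-square but not by principal components. Over tested genes with enough counts, chi-square over its degrees of freedom was 168 and 112 for the pairs with HDAC8 replicate 1. For HDAC8 replicates 2 and 3 it was 27.6. A principal component analysis of the 1000 most variable genes did not set replicate 1 apart alone. On its second component (18.6% of the variance) HDAC8 replicates 1, 2 and 3 stood at 59.46, -58.69 and 3.04. HDAC8 replicate 1 was the farthest of the 3 in 31 of the 51 repair genes, against 9 for replicate 2 and 11 for replicate 3. The same count over all genes was not made. Replicate 1 was lower than the other HDAC8 libraries for BRCA2 (3204.8 against 7314.5 and 6176.5 normalized counts), for ERCC4 (510.5 against 1001.6 and 901.7) and for NBN (1730.7 against 3352 and 3042.5). It was higher for FANCA (3705.9 against 1931.5 and 2360.8) and for RAD51D (814 against 390.2 and 544.5). Many AT-rich transcripts were low in it and GC-rich ones high: across the 51 genes, GC content of the longest transcript (33.1% to 63.8%) and the log2 ratio of HDAC8 replicate 1 to the others had a Pearson r of 0.53, as a description over genes that share 1 library. After normalization within bins of GC content r was -0.15, and the SD of the log2 ratios went from 0.44 to 0.37.

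With that normalization, added after the data had been seen, 6 repair genes were called higher and 1 lower. Over all 25708 genes tested in that fit, 1245 were called higher and 1288 lower. DDB1 (0.61) and RAD50 (0.68) kept their call and were joined by FANCB (0.77), CHEK1 (0.68), ATR (0.64) and XRCC2 (0.64), and LIG4 kept its call (-0.76) while ATM lost it (-0.52). Between the log2 fold change itself and GC content, r over the 51 genes was 0.14, -0.06 without HDAC8 replicate 1 and -0.10 after normalization. Without HDAC8 replicate 1, 3 repair genes were called higher and none lower, and 27 of the 51 had a positive sign. Over all 25126 genes tested in that fit, 1107 were called higher and 1378 lower. The origin of the GC-related difference of this library was not tested.

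**Figure D4:**
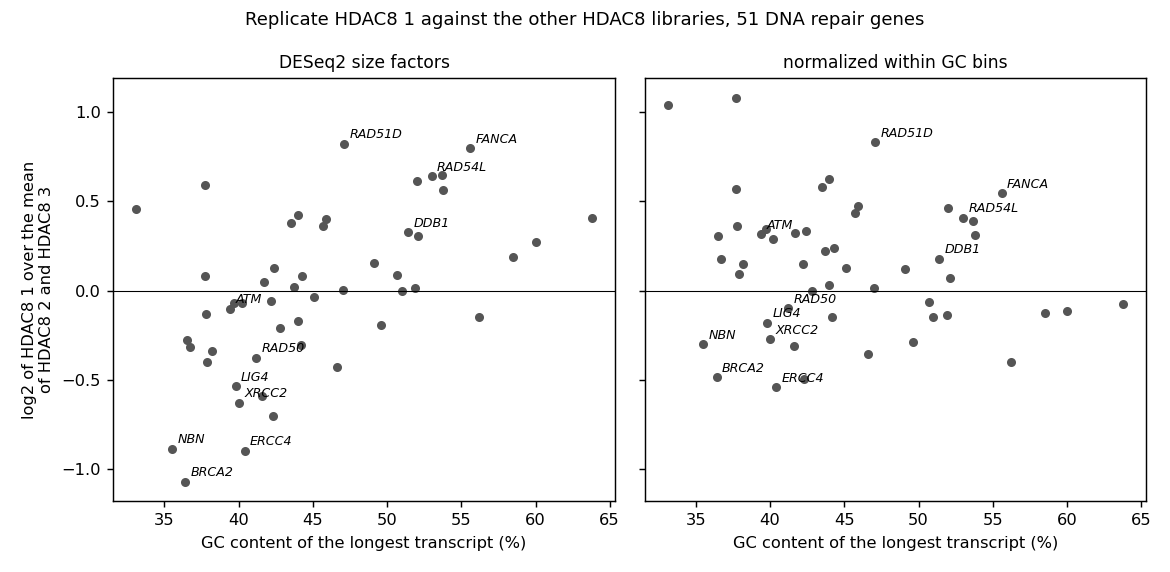
Log2 ratio of HDAC8 replicate 1 to the mean of HDAC8 replicates 2 and 3 (y axis) against the GC content of each repair gene's longest transcript in percent (x axis), with DESeq2 size factors (left) and after normalization within bins of GC content (right), for 51 genes. On the left BRCA2, ERCC4 and NBN lie low and FANCA and RAD51D high (r of 0.53), and on the right the slope is gone (r of -0.15) while genes such as RAD51D stay high.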

How the data were processed

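RNA-seq was made from WM164 cells with an empty vector (EV, n = 3) or an HDAC8 vector (n = 3). Labels gave each library its group and number. Since nothing says that libraries came from separate cultures, p-values measure only the spread between these libraries, which may be technical. The authors trimmed paired reads with Trimmomatic, used STAR for alignment to the transcriptome and RSEM for quantification. The authors deposited expected counts per gene without scaling between libraries. Genome build, annotation, duplicate removal and strand setting are not given in the sources used here. Expected counts share reads between near-identical genes, so genes with pseudogene copies are less certain.

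Expected counts were rounded and tested with DESeq2 1.42.0 in R 4.3.3 (Wald test, two-sided) with its own size factors, over 26162 genes whose counts summed to 10 or more. Calls needed a Benjamini-Hochberg adjusted p under 0.05 over all genes and 0.58 or more of log2 fold change, the thresholds of the study's methods. DESeq2 gave no adjusted p for 5141 genes. Normalized counts are counts over size factors. TPM used the longest transcript of each gene in GENCODE release 44 (GRCh38), which also gave gene positions. Intervals are at the 95% level. For each gene the first RefSeq promoter window was used. H2AX was matched by its identifier.

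The members and lists were chosen with earlier results of these data known. Values in every library were given for each called gene, for the largest change in each role (among genes at 50 normalized counts or more on average) and for the 3 genes with the lowest standard error (PRKDC, XRCC6 and PARP1). Others were shown after their values were seen. The level of 1 leukocyte marker is not reported here. Of the related lists, at most the 5 largest calls a list were named, with MCM10, AEN and TIGAR beyond that rule. CDKN1A, MDM2 and the head-to-head partner genes were picked after their values were seen.

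Alternatives were edgeR 4.0.16 (quasi-likelihood, TMM), limma-voom 3.58.1, total-count and upper-quartile scaling, fitting without a filter or with 10 counts required in every library, a block on replicate number, a test against the minimum change, no minimum, an adjusted p under 0.01, and each library left out. A fit without mitochondrially encoded genes and normalization within 20 bins of transcript GC content were chosen after seeing the data. The fits were tested on simulated data. Pairs of libraries of 1 group differed by more than sampling noise.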

Additional observations from a re-analysis of the deposited data

How the results depend on the processing

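None of the 4 called repair genes kept its call under all 16 alternatives, and 28 of the 51 genes kept their direction and side of the thresholds under each. These 16 leave out the settings with no minimum change and with an adjusted p under 0.01. PRKDC, FANCD2, MSH6 and XRCC6 reached both thresholds under none of the 16. No scaling moved the median of all genes by over 0.1, and higher genes made up 50.6% of all calls, 56.4% with total counts and 44.5% to 57.5% without 1 library. The cause of each change was not tested.

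Testing against the minimum change left 292 higher and 291 lower genes over the whole table, 0 in each direction among the repair genes, and 0 in every role and related list but the p53 targets, with 1 lower. With no minimum, 7 repair genes were higher: 1 Fanconi, 1 mismatch, 2 end joining and 1 signalling gene beside DDB1 and RAD50. In the related lists, 2 other mismatch, base excision and end joining genes and 10 S phase genes were then higher. At an adjusted p under 0.01, 1 repair gene was higher and 1 lower, with 0 in homologous recombination, in end joining and in the other mismatch, base excision and end joining genes. Total-count scaling gave 4 higher and 1 lower, with 2 higher and 0 lower in signalling, and turned RAD54L to 0.052 and TP53BP1 to 0.019. Upper-quartile scaling turned RAD54L to 0.003. Requiring 10 counts in every library gave 4 higher repair genes, 2 in homologous recombination and 1 in signalling, and 1 lower gene among the other mismatch, base excision and end joining genes. With limma-voom 1 repair gene was lower, 0 in end joining and 0 higher among the other mismatch, base excision and end joining genes, with FANCA at -0.017. Normalization within GC bins gave 6 higher and 1 lower, with 2 in homologous recombination, 1 in the Fanconi pathway, and 2 higher and 0 lower in signalling, 1 lower other recombination or Fanconi gene, 2 higher p53 targets and FANCA at -0.11. Over the whole table, higher and lower genes were 1394 and 1342 with no minimum, and 838 and 803 at an adjusted p under 0.01. They were 1318 and 1019 with total counts, 1280 and 1149 with 10 counts in every library, and 994 and 1083 with limma-voom. With GC bins they were 1245 and 1288.

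Libraries with the same number did not deviate together (correlations of -0.03, -0.07 and 0.04), which gave no sign that the numbers pair the samples. So few libraries cannot exclude a pairing. With a replicate block, 1 repair gene was lower, with 0 in end joining and 0 higher among the other mismatch, base excision and end joining genes, FANCA was at -0.027, and 1075 genes were higher and 1078 lower over the whole table.

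Leaving out 1 library gave 877 to 1218 higher and 746 to 1378 lower genes over the whole table. It gave 1 to 3 higher and 0 to 2 lower repair genes. There were 0 to 2 higher genes in nucleotide excision repair and 0 to 2 in homologous recombination. In end joining 0 to 1 was lower, and in signalling 0 to 1 was higher and 0 to 1 lower. The related lists held 1 to 3 higher other nucleotide excision repair genes, 0 to 2 lower other recombination and Fanconi genes, 0 to 1 higher and 0 to 1 lower other mismatch, base excision and end joining genes, 0 to 1 lower other signalling and tolerance genes, and 1 to 2 higher and 3 to 7 lower p53 targets. The log2 fold change changed sign without 1 library in ERCC3 (-0.05 to 0.17), ERCC6 (-0.17 to 0.18), DDB2 (-0.38 to 0.034), BRCA2 (-0.036 to 0.48), BARD1 (-0.23 to 0.20), RAD51B (-0.24 to 0.13), RAD51D (-0.023 to 0.52), RAD54L (-0.25 to 0.13), FANCA (-0.29 to 0.22), MSH3 (-0.15 to 0.14), XRCC4 (-0.15 to 0.46), CHEK2 (-0.24 to 0.077) and TP53BP1 (-0.16 to 0.092), none of which was called.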
